A study of Homo sapiens with 6 samples.

Results

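The Rab small GTPases were followed in ARPE-19 cells, an established line of human retinal pigment epithelium, after transfection with miR-204-5p. Members were the rows whose gene name is RAB, a number and at most 1 letter with an optional digit, and whose transcript types include protein-coding. Of 60612 genes in the deposited table, 63 met this rule, and 8 further rows with such names were pseudogenes and were left out. The study compared 3 libraries of cells transfected with miR-204-5p with 3 libraries of cells transfected with the control miR-NC, to look for possible targets of the microRNA, and the submitters call the replicates biological. Both groups share the cell line and carry a transfected RNA, the titles call the microRNA over expressed, and the labels give neither a dose nor a time after transfection. The expression unit was FPKM, read fragments divided by transcript length and by library depth, which can be compared between genes because it is per length.

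Rab proteins are molecular switches of membrane traffic. Bound to GTP they sit on a given membrane and recruit effectors such as motors and tethers, GEFs load them with GTP, GAPs switch them off, and an escort protein delivers them for the lipid modification that holds them on membranes. In the pigment epithelium they serve the uptake and digestion of photoreceptor outer segments, the making and movement of melanosomes and the sorting of apical and basolateral cargo, and loss of the escort protein CHM causes choroideremia, a degeneration of this layer. A microRNA lowers targets mainly by pairing of its seed, bases 2 to 8, with the 3' UTR of an mRNA.

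The mature miR-204-5p is printed with its seed in capitals, since every site described here was found by the complement of these letters. Its RefSeq position is chr9:70810031-70810052 on the minus strand of GRCh38.p14.
hsa-miR-204-5p: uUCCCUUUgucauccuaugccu

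Seed matches were sought on the mRNA strand, using for every gene the longest 3' UTR annotated (GENCODE release 29, GRCh38). An 8mer is AAAGGGAA, a 7mer-m8 is AAAGGGA without the last A, a 7mer-A1 is AAGGGAA without the first A, and a 6mer is AAGGGA with neither. A gene was classed by its strongest match. Of the 63 Rab genes, 9 held an 8mer, 7 a 7mer-m8 at best, 5 a 7mer-A1, 11 a 6mer, and 31 none. An 8mer was thus found in 14.3% of the Rab genes, and in 14.9% of those that could be tested, against 8.65% of the 10833 tested genes with a 3' UTR. An 8mer or 7mer-m8 was held by 25.4% of the 63 Rab genes, against 18.7% of those 10833 genes. Their 3' UTRs were also longer, with a median of 2150 bases over the Rab genes tested and 1314 bases over all genes tested, and a longer sequence has more chances to hold any word. The part of UTR length in the share was not tested.

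The sites of RAB22A and RAB40B are shown because both genes are reported targets of miR-204. Each line gives 22 bases of the UTR that end opposite base 1 of the microRNA, with the seed match in capitals. RAB22A lies on the plus strand and RAB40B on the minus strand.
RAB22A, 7mer-m8, chr20:58359904-58359925: aatctctagtgtacAAAGGGAc
RAB22A, 8mer, chr20:58360017-58360038: tatgtaacatttgtAAAGGGAA
RAB22A, 8mer, chr20:58362930-58362951: attcttaaatatctAAAGGGAA
RAB22A, 7mer-m8, chr20:58363616-58363637: tttacatttgctttAAAGGGAc
RAB40B, 8mer, chr17:82657640-82657661: cgatgtgtgtttgtAAAGGGAA

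RAB22A held 4 matches of the 8mer or 7mer-m8 kind in a 3' UTR of 7804 bases, and a 7mer-A1 besides. Only 21 of the 10833 tested genes with a UTR (0.194%) held 4 or more, and 0.932% held at least 2 8mers. Its first 7mer-m8 starts at base 215 of the UTR, the first 8mer at base 328 and the 7mer-A1 at base 358, so 3 matches lie close to the stop codon. The second 8mer starts at base 3241 and the second 7mer-m8 at base 3927. In the first 7mer-m8 the pairing runs on without a gap to base 10 of the microRNA. RAB40B has its 8mer near the start of the UTR, at base 216 of 2890.

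The other 7 genes with an 8mer are shown for comparison. RAB10 and RAB8A lie on the plus strand, the others on the minus strand.
RAB8A, chr19:16134102-16134123: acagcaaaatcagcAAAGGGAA
RAB10, chr2:26137178-26137199: ttctaaatatcaaaAAAGGGAA
RAB1A, chr2:65087826-65087847: tgattcttatggttAAAGGGAA
RAB14, chr9:121180106-121180127: taaattgttttgtaAAAGGGAA
RAB13, chr1:153981953-153981974: ggagaaaaaggagaAAAGGGAA
RAB30, chr11:82974325-82974346: caatcaacattaaaAAAGGGAA
RAB7B, chr1:205977904-205977925: taagtgctataaacAAAGGGAA

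Beyond the seed, pairing went on to base 9 in RAB8A and to base 10 in RAB7B, and stopped at base 8 in the other 8mers shown, RAB22A and RAB40B included. The 8mer of RAB8A ends 111 bases before the end of its annotated UTR, and that of RAB10 ends 255 bases before. RAB10 has a 7mer-m8 in addition. Those of RAB30 and RAB13 differ most in their setting, since RAB30 has a UTR of 9032 bases and RAB13 one of 482.

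Libraries differed more than the groups did. The first principal component held 54.1% of the variance and set both replicates 3 apart, at 41.1 (miR-204-5p) and 32.4 (miR-NC). The miR-204-5p library of replicate 1 scored 15.3, and the remaining 3 scored between -33.1 and -26.1. RN7SK, a small nuclear RNA without a poly(A) tail, stood at 361 FPKM in replicate 3 of miR-204-5p and between 5.24 and 14.5 FPKM elsewhere. The Rab genes summed to between 650 and 783 FPKM per library, 0.179% to 0.251% of all FPKM, with the lowest shares in both replicates 3 and in replicate 1 of miR-204-5p. Depth was estimated as about 19.0 to 23.2 M read pairs, at which 1 FPKM in a transcript of 2 kb is worth about 37.9 to 46.4 pairs. Of 14 pigment epithelium markers 9 had a mean of at least 1 FPKM, while RPE65, LRAT, TYR and TTR stayed below 0.5 FPKM in every library, and photoreceptor, glial and endothelial markers did so too. Of 5 fibroblast and mesenchymal markers 4 had a mean of at least 1 FPKM, with sums of 1511 to 1698 FPKM with miR-204-5p and 1415 to 1478 FPKM with miR-NC, mostly VIM. Of 3 immune markers CD68 did, at 24.6 to 39.8 FPKM, while PTPRC reached at most 0.510 FPKM. The part of these genes in the results was not tested. The mature microRNA is not read by libraries of poly(A) RNA, so how much of it the cells received was not measured.

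The levels ran over several orders. Of the 63 genes, 16 had a mean over the 6 libraries of at least 10 FPKM, 27 between 1 and 10 FPKM, and 20 below 1 FPKM. RAB1B, which acts in transport from the ER to the Golgi, was the most abundant at 172, 162 and 154 FPKM with miR-204-5p and 164, 165 and 160 FPKM with miR-NC, and alone made up 20.9% to 26.5% of the summed Rab FPKM. It was also the steadiest, with its highest library 1.12 times its lowest.

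Next in level came RAB13, RAB32 and RAB11B with means of 62.1, 61.6 and 49.3 FPKM. RAB13 works at tight junctions, RAB32 in the making of melanosomes, and RAB11B on recycling endosomes, and their ranges over libraries overlapped. RAB1A, RAB7A, RAB11A and RAB5C followed at 34.5, 32.3, 28.5 and 27.8 FPKM, again with overlapping ranges over libraries. These 8 genes held 64.3% of the summed Rab FPKM. At the other end, 7 genes were listed at 0 in at least 1 library, and RAB3C, a Rab of neuronal secretory vesicles, was listed at 0 in all 6.

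**Figure D1:**
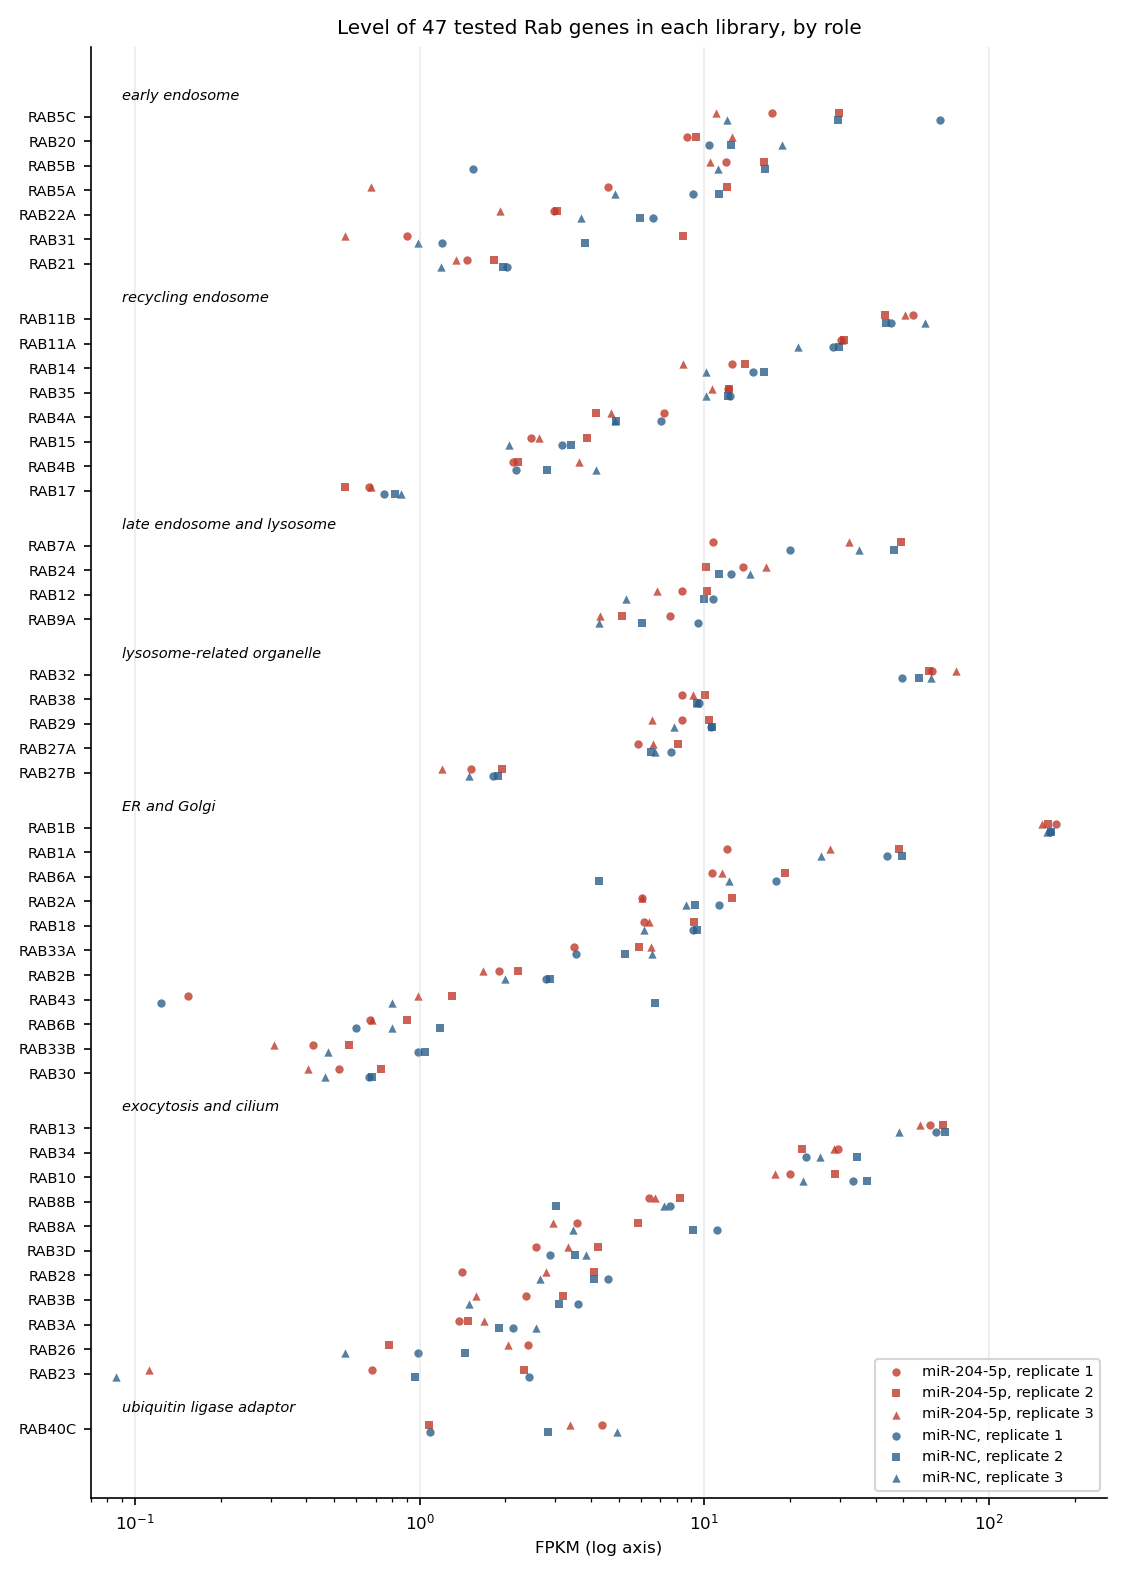
FPKM of the 47 tested Rab genes in each library on a log axis, grouped by role; red is miR-204-5p, blue is miR-NC, and the symbol gives the replicate. RAB1B lies farthest right near 163 FPKM, RAB22A has all 3 red points left of the blue ones, and RAB5A, RAB31, RAB43 and RAB23 spread widely over libraries.

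Among close relatives 1 copy usually led. RAB1B held 85.1% ± 8.25 (SD, n = 3) of the RAB1 sum with miR-204-5p and 80.7% ± 4.87 with miR-NC. RAB27A, which tethers melanosomes to motors, held 81.6% ± 2.69 and 80.1% ± 2.23 of the RAB27 sum. RAB6A, a Rab of the Golgi, held 93.4% ± 1.20 and 87.6% ± 12.0 of the RAB6 sum, and RAB6C and RAB6D are near-identical copies whose reads can be shared. For RAB8 the balance differed between the means, with RAB8A at 35.9% ± 5.64 with miR-204-5p and 55.7% ± 21.6 with miR-NC, a difference smaller than the control spread.

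A test was possible for the 47 Rab genes with at least 0.5 FPKM in at least 3 libraries. It was limma on log2(FPKM + 1), fitted on all 13151 genes that passed the same filter, with Benjamini-Hochberg adjustment over them. A positive fold change means a higher level with miR-204-5p, on that scale, which understates changes of low genes. The filter left 16 members untested, RAB40B among them.

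No Rab gene passed the test. At an adjusted p under 0.05 (limma) 0 of 47 were called, as were 0 of 13151 genes, a background of 0%. An unadjusted p under 0.05 was reached by 1 Rab gene, RAB22A, which is 2.13% of those tested against 2.08% of all genes (limma). It was lower with miR-204-5p, as were 0.92% of all genes at that p. Of the 47, 33 had a negative fold change (70.2%, against 53.1% of all genes tested), with a median of -0.08 beside -0.02 over all genes. The negative ones numbered 31 and 34 under the other scalings. The tested Rab genes were also low in certain libraries of both groups. Their median deviation from their own log2 means was -0.110 and -0.100 in miR-204-5p replicates 1 and 3. It was -0.102 in miR-NC replicate 3 and 0.098 to 0.141 in the remaining libraries. The part of this split of libraries in the lean was not tested. In 3 Rab genes (6.38%; RAB22A, RAB3A and RAB17) the highest miR-204-5p library lay below the lowest control, against a background of 2.17%, and in 1 (2.13%) they lay above, against 3.77%. In bulk libraries fewer cells of a type and less RNA per cell cannot be told apart.

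**Figure D2:**
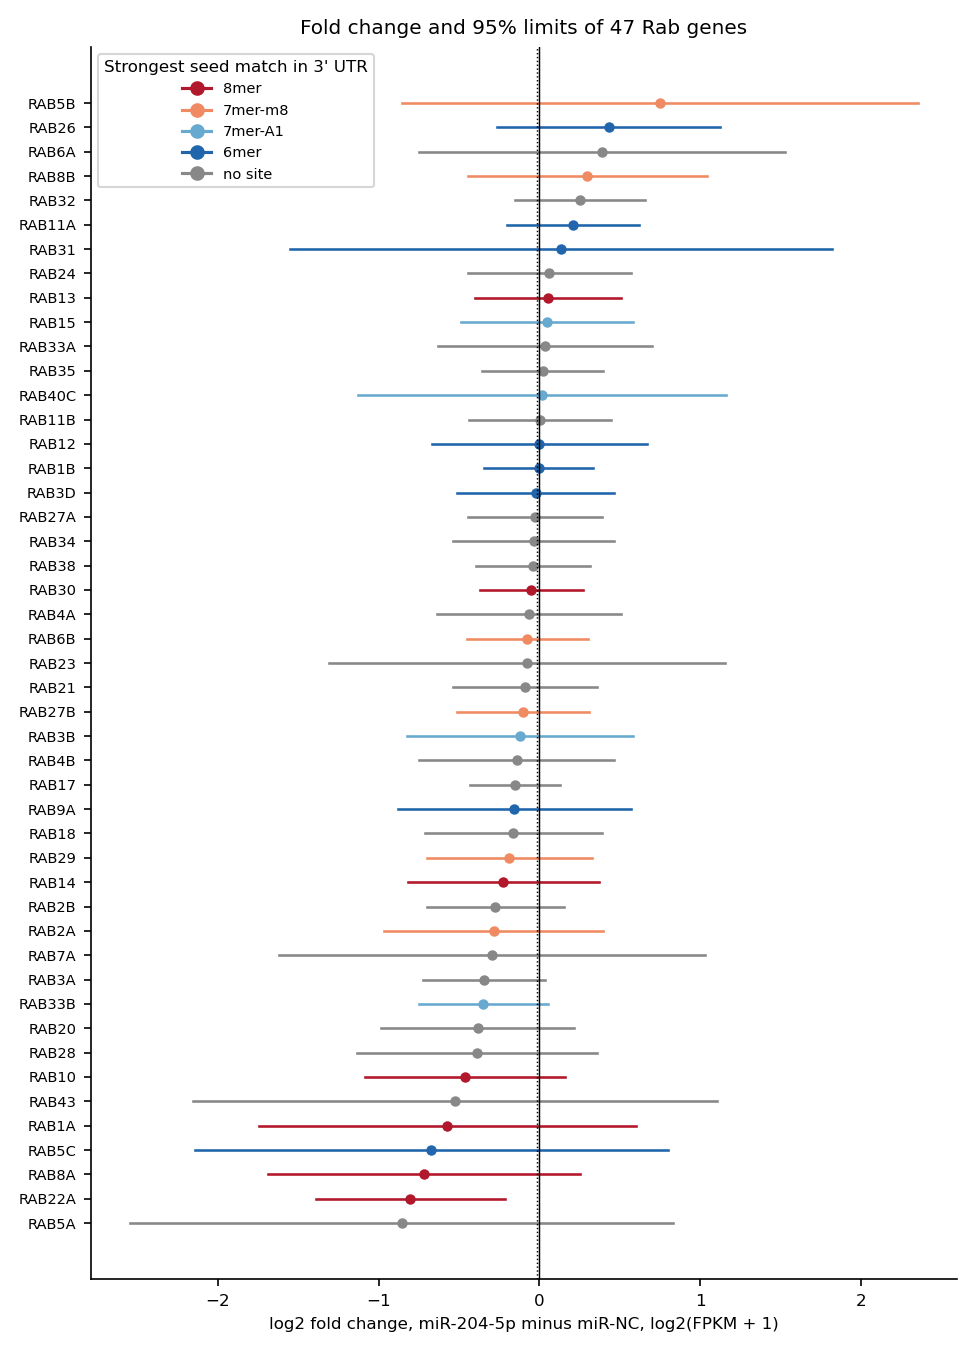
Log2 fold change (point) and its 95% limits (line) for 47 Rab genes, with miR-204-5p relative to miR-NC on log2(FPKM + 1), coloured by the strongest seed match in the 3' UTR; the dotted line is the median of all genes tested. RAB22A is the 1 gene whose limits, -1.39 to -0.22, leave out 0.

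RAB22A, a GTPase of early endosomes that governs recycling of cargo taken up without clathrin, had the lowest p of the 47 Rab genes tested. It stood at 2.96, 3.05 and 1.91 FPKM with miR-204-5p and at 6.61, 5.93 and 3.70 FPKM with miR-NC. There was no overlap between the groups, and replicate 3 was the lowest of its group in both. The log2 fold change was -0.80 (SE 0.25, unadjusted p = 0.0144, adjusted p = 1.00, limma), so the difference did not pass over all genes. An exact permutation test of its 6 values gave p = 0.1 (two-sided), the smallest that 3 against 3 can give. Leaving out single libraries gave -0.65 (miR-204-5p replicate 3 removed) to -1.01 (miR-NC replicate 3 removed), and the fold change was -0.86 without both replicates 3. In the authors' deposited table RAB22A had a log2 ratio of -1.04, a p of 0.00844 and a q of 1, and it was the 1 Rab gene of 63 marked as changed, as were 194 of all 60612 rows (0.32%).

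RAB40B has a SOCS box that joins it to a ubiquitin ligase. It stood at 0.513, 0.246 and 0.301 FPKM with miR-204-5p and at 0.4997, 0.408 and 0.276 FPKM with miR-NC. The highest value of all was in a miR-204-5p library and the groups overlapped throughout. The difference of mean log2 values was -0.05, and it turned to 0.012 without miR-204-5p replicate 2 and to 0.0088 without miR-NC replicate 1. With a pseudocount of 0.1 it was -0.14. Its relatives gave no difference beyond their spread: RAB40A stood at 0.294 ± 0.126 against 0.312 ± 0.102 FPKM (SD, n = 3 each), and RAB40C at 2.94 ± 1.69 against 2.95 ± 1.93 FPKM.

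RAB8A carries vesicles to the apical membrane and the cilium. With miR-204-5p it stood at 3.57, 5.84 and 2.93 FPKM and with miR-NC at 11.1, 9.15 and 3.46 FPKM. The control of replicate 3 lay among the miR-204-5p values, so the groups overlapped. Its log2 fold change was -0.72 with 95% limits of -1.69 to 0.25 (unadjusted p = 0.124, limma). The value rested on which control was kept, at -1.16 without miR-NC replicate 3 and -0.44 without miR-NC replicate 1. In the authors' deposited table RAB8A had a log2 ratio of -0.94 with a p of 0.0445 and a q of 1.

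RAB10, which moves vesicles to the basolateral membrane, stood at 19.9, 28.7 and 17.7 FPKM with miR-204-5p and at 33.3, 37.3 and 22.2 FPKM with miR-NC. Replicate 2 was the highest and replicate 3 the lowest of each group, and the ranges overlapped. The log2 fold change was -0.46 (limits -1.09 to 0.16). RAB1A, the ER to Golgi relative of RAB1B, read 12.0, 48.4 and 27.6 FPKM against 44.0, 49.4 and 25.7 FPKM. Its mean was lower mainly through miR-204-5p replicate 1, and the fold change of -0.57 became -0.06 without that library.

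The remaining 8mer genes showed smaller differences. RAB14, between endosomes and the Golgi, had means of 11.6 ± 2.82 and 13.7 ± 3.16 FPKM (SD, n = 3 each). Its log2 fold change of -0.22 was -0.03 without miR-204-5p replicate 3. RAB13 stood at 62.9 ± 5.80 against 61.2 ± 11.6 FPKM, with a fold change of 0.05 that was -0.01 after quantile normalization. RAB30, a Golgi Rab, stood at 0.553 ± 0.164 against 0.604 ± 0.120 FPKM. RAB7B, a late endosome Rab below the filter, was at 0.018 and 0.026 FPKM and listed at 0 with miR-204-5p, and at 0.066, 0.057 and 0.063 FPKM with miR-NC. Its groups did not overlap, at levels worth only a few reads. Without the filter RAB7B had an unadjusted p of 0.00883 and RAB22A one of 0.0163 (limma). The adjusted p was 0.970 for both (limma).

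**Figure D3:**
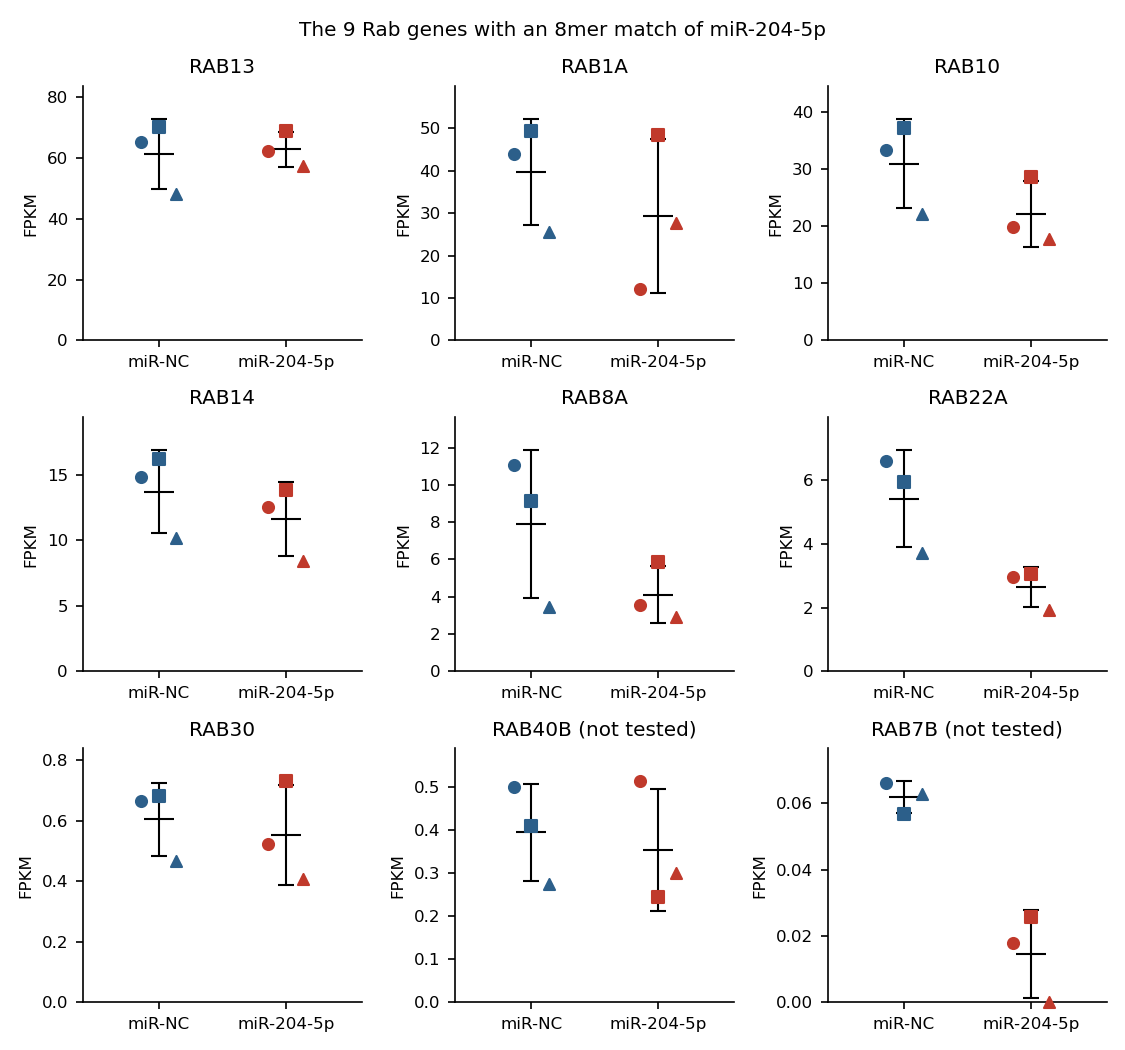
FPKM of the 9 Rab genes with an 8mer in each library, with circles, squares and triangles for replicates 1, 2 and 3; the bar and whiskers are the mean and SD of 3 libraries. In RAB22A and RAB7B the groups do not overlap, and in RAB8A the control of replicate 3 (3.46 FPKM) lies among the miR-204-5p values.

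By class of site, 6 of the 7 tested Rab genes with an 8mer had a negative fold change, with a median of -0.46. Over all 937 tested genes with an 8mer, 72.3% were negative and the median was -0.11. The Rab genes with a 7mer-m8 at best had 4 of 6 negative and a median of -0.09, beside 65.8% negative and -0.08 over all 1086 such genes. With a 7mer-A1 2 of 4 were negative (62.7% of all such genes), and with a 6mer 5 of 8 (55.7%). Those without a site had 16 of 22 negative and a median of -0.08, beside 48.3% negative and a median of 0.01 over all 6522 such genes. Thus Rab genes without a site also leaned lower than other genes without one. The median 3' UTR length of all tested genes fell over the same classes. It was 3108, 2816, 2477 and 1864 bases from 8mer to 6mer, and 794 bases without a site. Tested Rab genes without a site had a median of 1264 bases. The part of UTR length in these differences was not tested. The median of the 8mer Rab genes stayed negative in each alternative run, from -0.68 without miR-NC replicate 3 to -0.22 without a filter, and was -0.29 without miR-204-5p replicate 1. The number negative ran from 5 of 7 without miR-204-5p replicate 3 to all 7 with quantile normalization. Site counts per gene are a description, and 7 genes are too few to set the Rab family apart.

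**Figure D4:**
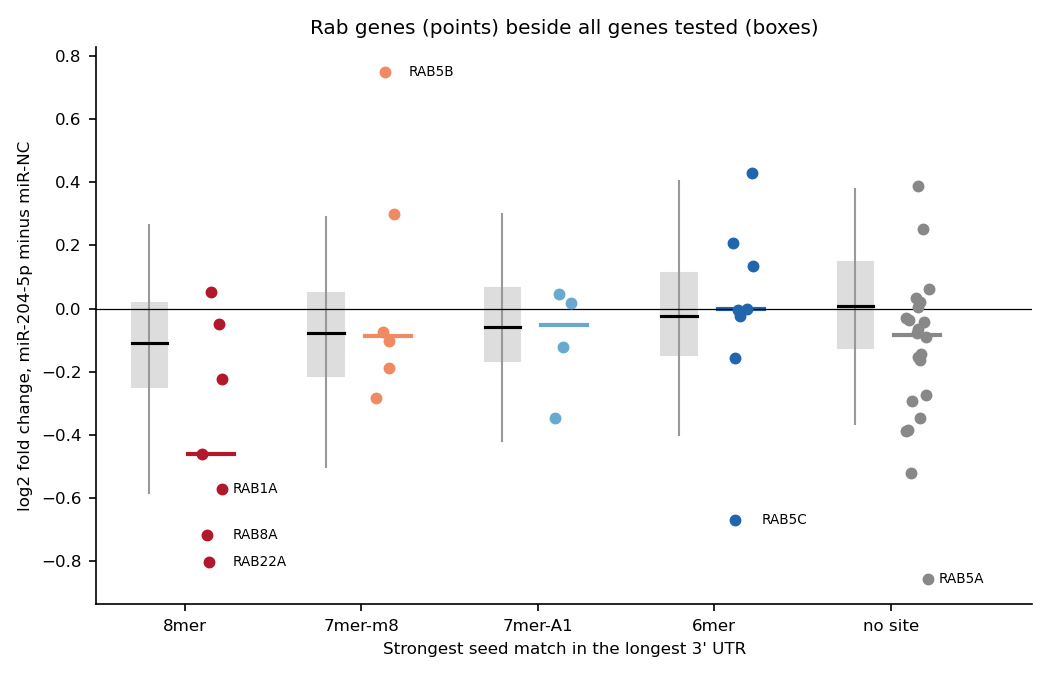
Log2 fold change by the strongest seed match in the longest 3' UTR; boxes give the quartiles, lines the 5th to 95th percentiles and black bars the medians of all tested genes of the class, and points with coloured bars the Rab genes and their medians. RAB22A, RAB8A, RAB1A and RAB10 lie at -0.46 or below in the 8mer class, and RAB5A lies at -0.86 with no site.

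Among early endosome Rabs, 5 of 7 fold changes were negative, and single libraries stood out in this group. RAB5A, RAB5B and RAB5C drive fusion of early endosomes. RAB5A read 4.59, 12.1 and 0.674 FPKM with miR-204-5p and 9.13, 11.3 and 4.84 FPKM with miR-NC, and its fold change of -0.86 was -0.07 without miR-204-5p replicate 3. RAB5B, with a 7mer-m8, read 11.9, 16.3 and 10.4 FPKM against 1.54, 16.4 and 11.2 FPKM. Its fold change of 0.75 was -0.09 without miR-NC replicate 1. RAB5C was at 67.5 FPKM in that library and between 11.0 and 29.7 FPKM in the other 5, and its fold change of -0.67 was -0.08 without it. So RAB5B was at its lowest and RAB5C at its highest in 1 and the same control library.

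RAB31, the closest relative of RAB22A in the family, read 0.906, 8.40 and 0.545 FPKM against 1.20, 3.80 and 0.988 FPKM. Replicate 2 was the highest in both groups, and the fold change turned from 0.13 to -0.68 without miR-204-5p replicate 2. RAB20, a Rab of phagosomes, had means of 10.2 ± 2.03 and 13.9 ± 4.38 FPKM (SD, n = 3 each). Its values overlapped between the groups and the log2 fold change of -0.38 was -0.16 without miR-NC replicate 3. RAB21, which carries integrins, had -0.09.

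The lysosome-related Rabs varied little. RAB32 stood at 63.1, 61.6 and 76.5 FPKM with miR-204-5p and 49.4, 56.6 and 62.5 FPKM with miR-NC. The ranges overlapped, and the fold change was 0.25 (limits -0.15 to 0.65). It was 0.15 when miR-204-5p replicate 3 was left out, and 0.16 when the first control was. RAB38, its partner in melanosome making, stood at 9.19 ± 0.842 against 9.46 ± 0.090 FPKM (SD, n = 3 each). RAB27A stood at 6.85 ± 1.14 against 6.97 ± 0.620 FPKM. The fold changes of the 5 genes in this role ran from -0.19 (RAB29) to 0.25 (RAB32). For RAB27A the limits were -0.45 and 0.39.

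Recycling Rabs were balanced, with 4 of 8 fold changes negative. RAB11A was the 1 Rab gene with all miR-204-5p values above all miR-NC values, at 30.2, 31.0 and 30.4 FPKM against 28.3, 29.8 and 21.4 FPKM. Its log2 fold change of 0.21 (limits -0.20 to 0.62) was 0.07 without miR-NC replicate 3, the library in which it was lowest. RAB17, of epithelial recycling, stood at 0.663, 0.547 and 0.675 FPKM against 0.749, 0.822 and 0.857 FPKM. Here the controls were all higher, and the fold change was -0.15. In the late endosome group RAB7A, which takes endosomes and phagosomes to the lysosome, read 10.7, 49.1 and 32.3 FPKM against 20.0, 46.4 and 35.1 FPKM. Replicate 1 was lowest in both groups, and the fold change of -0.29 was 0.31 without miR-204-5p replicate 1.

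In the ER and Golgi group 9 of 11 fold changes were negative, with a median of -0.16. RAB33B, a Golgi Rab that binds the autophagy protein ATG16L1, read 0.423, 0.564 and 0.309 FPKM with miR-204-5p and 0.989, 1.04 and 0.477 FPKM with miR-NC. The third control lay among the miR-204-5p values, and the fold change was -0.35 (limits -0.75 to 0.05), or -0.78 with a pseudocount of 0.1. RAB2B, with a role at the Golgi, had -0.27 (limits -0.70 to 0.15). RAB43 read 6.71 FPKM in miR-NC replicate 2 and only 0.124 and 0.801 FPKM in the other controls. It shares exons with the readthrough gene ISY1-RAB43, so the split of reads between them is uncertain. ISY1-RAB43 was listed at 0 in miR-NC replicate 2 and in miR-204-5p replicate 2. It was also listed at 0 in miR-NC replicate 3, where RAB43 read 0.801 FPKM. In the remaining libraries ISY1-RAB43 reached at most 1.79 FPKM. RAB4B likewise shares exons with MIA-RAB4B and RAB4B-EGLN2. Exons of RAB5C, RAB8A, RAB13, RAB27A, RAB40C, RAB24, RAB3D and RAB4A also overlap exons of other genes on the same strand. The part of shared reads in their levels was not tested.

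Among the Rabs of exocytosis and the cilium, 8 of 11 fold changes were negative. RAB3A, which docks secretory vesicles, stood at 1.38, 1.48 and 1.68 FPKM with miR-204-5p and 2.13, 1.91 and 2.57 FPKM with miR-NC. Every control exceeded every treated library, and the log2 fold change was -0.35 (limits -0.73 to 0.03). RAB3A has no seed match in its 3' UTR of 686 bases. RAB28, mutated in a cone and rod dystrophy, stood at 2.76 ± 1.35 against 3.78 ± 1.02 FPKM (SD, n = 3 each). RAB23, which restrains Hedgehog signalling, was at 0.112 and 0.086 FPKM in the replicates 3 and between 0.678 and 2.42 FPKM elsewhere.

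Differences between libraries that cut across the groups were common. In 14 of the 47 tested Rab genes (29.8%) both replicates 3 lay below the other 4 libraries, among them RAB13, RAB14, RAB8A and RAB23, and in 4 (8.51%) both lay above, RAB20, RAB24, RAB33A and RAB4B. Over all genes tested these shares were 30.4% and 10.4%, so the Rab genes were close to the background. In 11 Rab genes (23.4%, against 15.1% of all tested) the highest library exceeded the lowest by more than 4 times. These included RAB5A, RAB5B, RAB5C, RAB31, RAB43 and RAB23. The ratio is not defined for a gene listed at 0 in a library, which no tested Rab gene was. The share over all genes may therefore be understated.

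**Figure D5:**
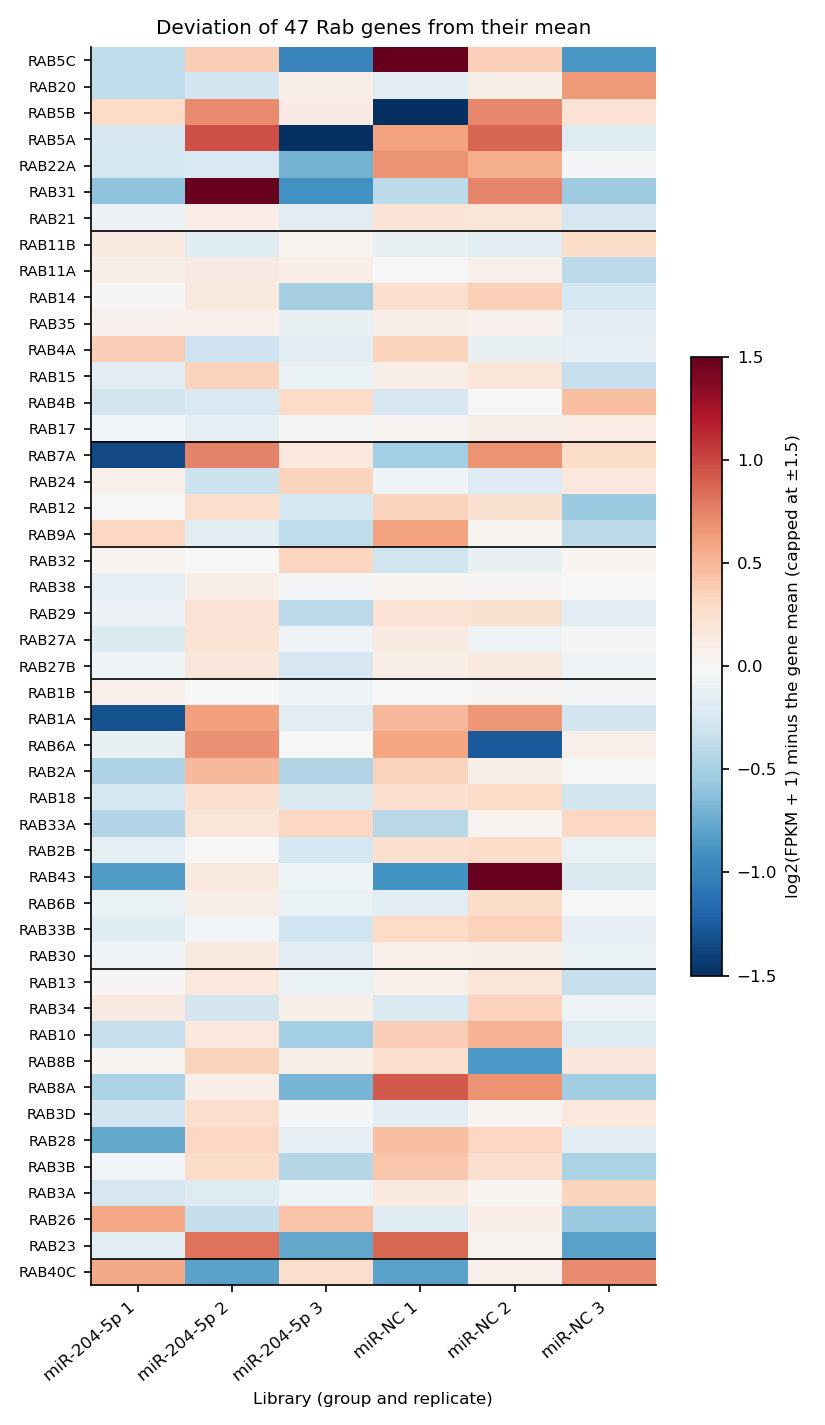
Deviation of each tested Rab gene from its own mean of log2(FPKM + 1) in the 6 libraries, red above and blue below, with lines between the roles. The 3 RAB5 genes, RAB31, RAB7A and RAB43 each have 1 or more strongly coloured cells, while RAB1B and RAB38 are nearly white.

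The proteins that load, switch and deliver Rabs did not pass the test either. Of 108 tested regulators and effectors 0 were called and 0 had an unadjusted p under 0.05 (limma), against backgrounds of 0% and 2.08%. Negative fold changes numbered 2 of 8 for the GDI, escort and prenylation proteins, 21 of 33 for GEFs, 20 of 31 for GAPs and 22 of 36 for effectors, with medians of 0.07, -0.06, -0.05 and -0.07.

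By smallest p in each list, RABAC1, which takes part in releasing Rabs from GDI, stood at 60.4 ± 32.7 FPKM with miR-204-5p and 37.1 ± 9.21 FPKM with miR-NC (SD, n = 3 each), and RABGGTB, a prenylation subunit, had a log2 fold change of 0.20. The GAPs TBC1D10B and EVI5L had 0.33 and 0.21, in each with every miR-204-5p value above the controls. The GEFs DENND2A and RABGEF1, the latter an activator of RAB5, had 0.20 and 0.33, and DENND2A also had its 3 miR-204-5p values above the controls. Over the 108 genes the groups did so in 5 (4.63%, against 3.77% of all genes tested) and lay the other way in 1, DENND4B (0.926%, against 2.17%). MYO7A, the motor that moves melanosomes in the pigment epithelium, stood at 1.12 ± 0.373 against 1.77 ± 0.589 FPKM, and PLIN3, an effector of RAB9, at 57.2 ± 4.74 against 47.4 ± 4.46 FPKM. The limits of all 8 included 0.

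The escort protein CHM read 0.668, 1.09 and 0.735 FPKM with miR-204-5p and 0.234, 1.29 and 0.675 FPKM with miR-NC, and its paralogue CHML stood at 0.822 ± 0.344 against 0.951 ± 0.411 FPKM (SD, n = 3 each). Values of both overlapped between the groups. GDI2, which holds Rabs in the cytosol, was far more abundant at 47.1 ± 7.82 against 47.1 ± 5.62 FPKM. Its fold change on the log2 scale was -0.01 (limits -0.44 to 0.43).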

How the data were processed

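Poly(A) RNA was made into strand-marked libraries and read as paired ends, per the labels' protocols. The tools named, per the submitters' processing notes, are StringTie 1.3.4d, HISAT2 2.0.4, cutadapt 1.9, DESeq2 and edgeR, with the build GRCh38 and no role for each. No source used here names the annotation. One FPKM column per library was deposited, with 0.0001 in place of 0, set to 0 here. The deposited fold ratio and log2 ratio equal those of the group means of FPKM. The authors' p-values and q-values were deposited too and are quoted as theirs.

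FPKM are not counts, so no count test was run. Limma 3.58.1 in R 4.3.3 was fitted to log2(FPKM + 1) with a trend of variance on level and no covariates, on genes with at least 0.5 FPKM in at least 3 libraries. Limits are 95%, tests two-sided. The code was tested on simulated data. Depth is rough: it takes the most frequent product of FPKM and length, in genes with 1 transcript, as 1 read pair, and between 26.2% and 32.6% of low values in a library fell on multiples of 0.5 of it, within 1%.

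Members, lists and tests were chosen with earlier results of these data known. Named genes were RAB22A, RAB40B and their numbered relatives, the 8 members with the smallest p, the 8 highest, those with an 8mer, and 2 regulators per list. Others were chosen after their values were seen. P-values measure the spread between these libraries. The labels do not say that a shared replicate number marks a day or batch, so the numbers were not taken as pairs. Deviations from the group mean correlated at 0.04, 0.55 and 0.52 between libraries with one number, for numbers 1, 2 and 3. Between libraries with different numbers the correlations ran from -0.61 to 0.32. Since deviations sum to 0 within each group, these correlations depend on one another. A fit with the number as a block is given among the alternatives. Alternatives were other pseudocounts, filters and scalings, a fit without the trend, and single libraries left out.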

Additional observations from a re-analysis of the deposited data

How the results depend on the processing

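The number of Rab genes and of Rab regulators called stayed at 0 in each alternative run, and that of all genes at 0 in each but 1: leaving out single libraries gave 0 to 3 genes, the 3 without miR-204-5p replicate 2. The fold change of RAB22A ran from -1.01 to -0.65 over left-out libraries, with an unadjusted p of 0.0541 without miR-NC replicate 1, and was -0.997 with a pseudocount of 0.1. RAB40B ran from -0.13 to 0.012 over left-out libraries and was -0.14 with a pseudocount of 0.1. The median of the Rab genes ran from -0.14 to -0.04. The count of Rab genes with an 8mer or 7mer-m8 was 16 and, with any annotated 3' UTR, 17, the added gene being RAB28. Of 254 values of other named Rab genes, 232 kept their sign and 22 changed it, none of them called. Sign changes were RAB11B with quantile normalization (-0.060) and over left-out libraries (-0.081 to 0.14), RAB13 with quantile normalization (-0.014), without both replicates 3 (-0.046) and over left-out libraries (-0.11 to 0.16), RAB1B with median-of-ratios scaling (0.012), without both replicates 3 (0.021) and over left-out libraries (-0.046 to 0.034), and, over left-out libraries, RAB30 (-0.13 to 0.019), RAB40A (-0.074 to 0.061), RAB40C (-0.38 to 0.42) and RAB7A (-0.74 to 0.31). RAB40A also changed sign, to 0.12, without both replicates 3, and RAB7B was -0.51 with a pseudocount of 0.1. Leaving out both replicates 3 was chosen after seeing the data. The cause of these shifts was not tested. With the replicate number as a block 0 Rab genes were called. An unadjusted p under 0.05 (limma) was then reached by 6 of 47 Rab genes and by 941 of 13151 genes tested. Without the block it was reached by 1 and 273 of them. With the block RAB22A had an unadjusted p of 0.00151, the smallest over the alternatives, and an adjusted p = 0.661 (limma). Of the miR-204-5p libraries, those numbered 2 and 3 were closest to the control of that number, and the library numbered 1 was not. Count tests were not run. For the genes below 1 FPKM, counting error and the spread between libraries were not separated.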
